A study of Mus musculus with 24 samples.

Results

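The 10 genes described here are the CXC chemokines Cxcl1, Cxcl2, Cxcl5, Cxcl9, Cxcl10, Cxcl12, Cxcl13, Cxcl14 and Cxcl16 together with the CX3C chemokine Cx3cl1, known as fractalkine. They were taken by symbol from a table of 56065 genes, and each symbol matched 1 Ensembl gene identifier. The series holds 24 RNA libraries of mouse choroid, the vascular layer beneath the retina, a name that the study's methods use for the choroid dissected together with the retinal pigment epithelium and the sclera. Without laser treatment there were 4 wild type and 4 Ceacam1-/- libraries, and with laser treatment 9 and 7. Ceacam1-/- mice are homozygous for a germline deletion of the first and the second exon of Ceacam1, so that every cell type carries it, and the wild type mice were littermates on the same C57BL/6J background. Laser-treated mice received 6 spots in each eye, at 150 mW, 200 µm and 100 ms, a procedure that ruptures Bruch's membrane and is used to induce choroidal neovascularization. Mice of the study were young adults of both sexes, but neither the sex behind a library nor the time between laser and tissue collection is given in the sources used here. Values are normalized counts, which summed to between 23704346 and 35094410 per library, with a median of 25708886. Libraries are named by the number in their labels. Those without laser came from 4 mice of each genotype, while the sources used here do not state whether each laser library came from a separate mouse, so that p-values measure the spread between libraries, which may in part be technical.

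Chemokines are small secreted proteins that direct the migration of leukocytes through G protein-coupled receptors. Cxcl1, Cxcl2 and Cxcl5 attract neutrophils through Cxcr2, and Cxcl9 and Cxcl10 are induced by interferons and attract T and NK cells through Cxcr3. Cxcl12 is made by stromal and perivascular cells and signals through Cxcr4, Cxcl13 guides B cells through Cxcr5, and Cxcl14 is made constitutively in many epithelia. Cxcl16 and Cx3cl1 are made as transmembrane proteins that can be shed, and their receptors are Cxcr6 on T cells and Cx3cr1 on microglia, monocytes and macrophages. In the eye, the Cx3cl1 and Cx3cr1 pair is known for its part in microglial behaviour.

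On GRCm39 the neutrophil-attracting members share a short stretch of chromosome 5. There, Cxcl5 spans chr5:90907186-90909483, Cxcl1 spans chr5:91039094-91040974 and Cxcl2 spans chr5:91051730-91053797, all on the plus strand and each with 4 exons. Cxcl9 at chr5:92469206-92475945 and Cxcl10 at chr5:92494497-92496748 are neighbours on the minus strand, and Cxcl13 lies at chr5:96104810-96108927. Cxcl12 lies at chr6:117144945-117158328, Cxcl14 at chr13:56436352-56444603, Cxcl16 at chr11:70344517-70352620 and Cx3cl1 at chr8:95498637-95509055.

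RefSeq promoters of assembly GRCm38.p6 were given for 8 of the 10 genes. They run from 250 bases before to 50 bases after the start and were searched on both strands for 3 motifs, in which N is any base. These were an NF-kappaB-type motif (GGG, then NNN, then TTCC), an interferon-response-type motif (GAAA, then NN, then GAAA) and a STAT-type motif (TTC, then NNN, then GAA). The NF-kappaB-type letters were found in 3 of the 8 promoters, those of Cxcl1, Cxcl2 and Cxcl10, and in 5.56% of all 32851 promoters of the table. The interferon-response-type letters were found in 2 of the 8, those of Cxcl10 and Cxcl14, and in 3.44% of all promoters. The STAT-type letters were found in 1 of the 8, that of Cxcl14, and in 8.30% of all promoters. A match is a description of letters and not of a bound site. The 3 promoters with the NF-kappaB-type letters are printed to give their spacing, as the 250 bases before the start, 5′ to 3′ on the strand of the gene, with the matched letters in capitals. They are chr5:90890995-90891244 on the plus strand for Cxcl1, chr5:90903649-90903898 on the plus strand for Cxcl2 and chr5:92348890-92349139 on the minus strand for Cxcl10.
Cxcl1: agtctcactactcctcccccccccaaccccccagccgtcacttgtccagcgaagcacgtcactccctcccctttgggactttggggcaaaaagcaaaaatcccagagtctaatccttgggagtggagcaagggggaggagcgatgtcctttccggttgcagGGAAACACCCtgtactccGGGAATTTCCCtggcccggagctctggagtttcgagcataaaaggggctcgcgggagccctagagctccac
Cxcl2: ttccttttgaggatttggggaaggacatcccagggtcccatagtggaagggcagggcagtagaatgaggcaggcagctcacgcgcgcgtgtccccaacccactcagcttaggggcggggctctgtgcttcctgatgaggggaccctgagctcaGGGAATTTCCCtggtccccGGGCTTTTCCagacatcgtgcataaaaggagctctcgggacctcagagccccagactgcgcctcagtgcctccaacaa
Cxcl10: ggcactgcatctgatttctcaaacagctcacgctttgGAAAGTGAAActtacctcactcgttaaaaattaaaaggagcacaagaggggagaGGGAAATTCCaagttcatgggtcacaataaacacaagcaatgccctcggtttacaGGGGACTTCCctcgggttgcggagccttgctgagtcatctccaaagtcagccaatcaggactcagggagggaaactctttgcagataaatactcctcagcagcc
In Cxcl1 and Cxcl2 the same 10 letters GGGAATTTCC, which also match on the other strand 1 base on, lie 71 and 97 bases before the start. A further match lies 89 bases before the start of Cxcl1, and another 78 bases before that of Cxcl2. In Cxcl10 the interferon-response-type letters lie 213 bases and the NF-kappaB-type letters 159 and 104 bases before the start.

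The genotype labels were checked with Ceacam1 itself. Without laser it stood at 958, 5027, 1242 and 4596 normalized counts in wild type libraries 21, 22, 26 and 27, and at 405, 505, 508 and 1171 in Ceacam1-/- libraries 23, 24, 25 and 28. With laser it ranged from 774 over a median of 996 to 8367 in wild type and from 67.8 over 335 to 905 in Ceacam1-/- libraries. The genotypes therefore overlapped, through the libraries labelled Ceacam1-/- 28 and 15, and gene-level counts include exons outside the deletion, so that they do not check a single label. Libraries 28 and 15 also held the highest sums of 6 surface epithelium markers, 392632 and 394309, and the wild type libraries with most Ceacam1, 19, 22 and 27, held 102515, 292440 and 69352.

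The choroid samples differed in their tissue makeup. Markers of endothelium, retinal pigment epithelium, melanocytes and fibroblasts were present in every library, and so were those of neighbouring tissue. The 7 photoreceptor markers summed to more than 500000 normalized counts in 5 libraries, at 895541, 512437 and 965745 in Ceacam1-/- laser libraries 14, 15 and 18, at 516197 in wild type library 21 and at 562377 in Ceacam1-/- library 23. The other 19 libraries held between 3077 and 246364. Among the 7 Ceacam1-/- laser libraries, these 3 lay below the other 4 in the summed markers of 9 of 15 cell types, among them endothelium (7814 to 15416 against 22436 to 34467), fibroblasts (37843 to 97647 against 352019 to 599838) and myeloid cells (15964 to 27085 against 59521 to 88708). Of the 10 chemokines, Cxcl10, Cxcl12 and Cxcl16 lay below, Cxcl13 lay above and the other 6 overlapped. Laser effects were therefore also estimated without libraries 14, 15 and 18 and without all 5, and for the chemokines and the genes named beside them the values of at least 1 of these fits are given where a call changed. In bulk tissue, fewer cells of a type and less RNA per cell cannot be told apart.

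Levels of different genes were set beside each other per kilobase of the annotated canonical transcript. Cxcl12 was the most abundant member in the mean of every group, at 891 ± 254 (SD, n = 4) normalized counts per kilobase in wild type without laser, 841 ± 270 (n = 4) in Ceacam1-/- without laser, 1844 ± 188 (n = 9) in wild type with laser and 1541 ± 945 (n = 7) in Ceacam1-/- with laser. It made up between 19% and 58.2% of the summed level of all 10 genes, with a median of 45.7% over the 24 libraries. In Ceacam1-/- laser libraries 7, 14 and 18 another member was the most abundant, Cxcl10, Cx3cl1 and Cxcl14 in turn. Second in wild type came Cx3cl1 at 494 ± 75 (n = 4) per kilobase without laser and 592 ± 97.6 (n = 9) with laser. Cxcl12 and Cx3cl1 did not overlap in either wild type group. Cxcl16 followed at 222 ± 45.8 (n = 4) without laser and 477 ± 68.4 (n = 9) with laser. Cxcl13 and Cxcl2 were at the bottom without laser, at 10.5 ± 9.47 and 9.15 ± 8.06 (n = 4) per kilobase in wild type, and in wild type without laser each gene from Cxcl16 down overlapped with the next in the order. In Ceacam1-/- mice with laser, Cxcl10 was second by its mean of 783 ± 1048 (n = 7), a place set by libraries 5 and 7, since it exceeded Cx3cl1 in only 2 of 7 libraries.

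**Figure D1:**
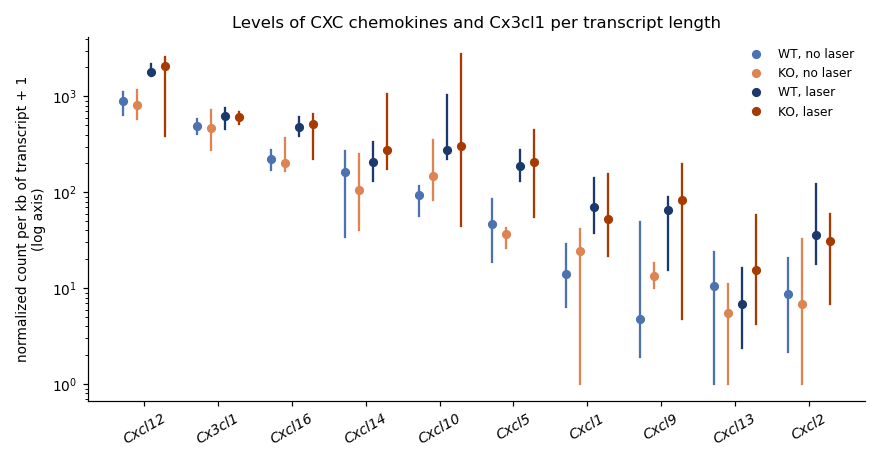
Levels of the 10 chemokines per kilobase of transcript, as normalized count per kb plus 1 on a log axis; points are group medians and lines run from the lowest to the highest library (4 wild type and 4 Ceacam1-/- libraries without laser, 9 and 7 with laser; KO stands for Ceacam1-/-). By group medians Cxcl12 leads in all 4 groups, and Cxcl2, Cxcl9 and Cxcl13 are lowest without laser.

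The first comparison asked which of these chemokines differed after laser treatment in wild type choroid. Cxcl5, Cxcl9 and Cxcl16 rose, and all 9 members other than Cxcl13 had a log2 fold change above 0. With limma's test over 19950 genes and Benjamini-Hochberg adjustment, 3 of 10 members were called higher, beside 4.23% of all genes tested, and none lower, beside 1.05%. For 5 of 10 members, Cxcl1, Cxcl5, Cxcl10, Cxcl12 and Cxcl16, every laser library lay above every library without laser, beside 4.50% of all genes. The median log2 fold change was 1.58 over the members and -0.10 over all genes tested. In Ceacam1-/- choroid, Cxcl5 and Cxcl16 rose, 2 of 10 members beside 2.07% of all genes, none fell, beside 1.65%, and the groups did not overlap for Cxcl5 alone, beside 1.17% of all genes. There the median log2 fold change was 1.83 over the members and 0.02 over all genes. Cxcl13, with group means of 12, 5.45, 9.26 and 25.7 normalized counts, reached the minimum mean of 10 through the Ceacam1-/- laser libraries, so that its own fold changes are given with no test. The medians over the other 9 members were 2.04 and 1.69. Both laser comparisons come from 1 model of all 24 libraries, which share an estimate of the spread. In a model of only the 2 groups compared, 7 members were called higher in wild type, beside 8.13% of all genes, and 0 in Ceacam1-/- mice, beside 0.177%, so that the calls over all genes moved with those of the members.

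**Figure D2:**
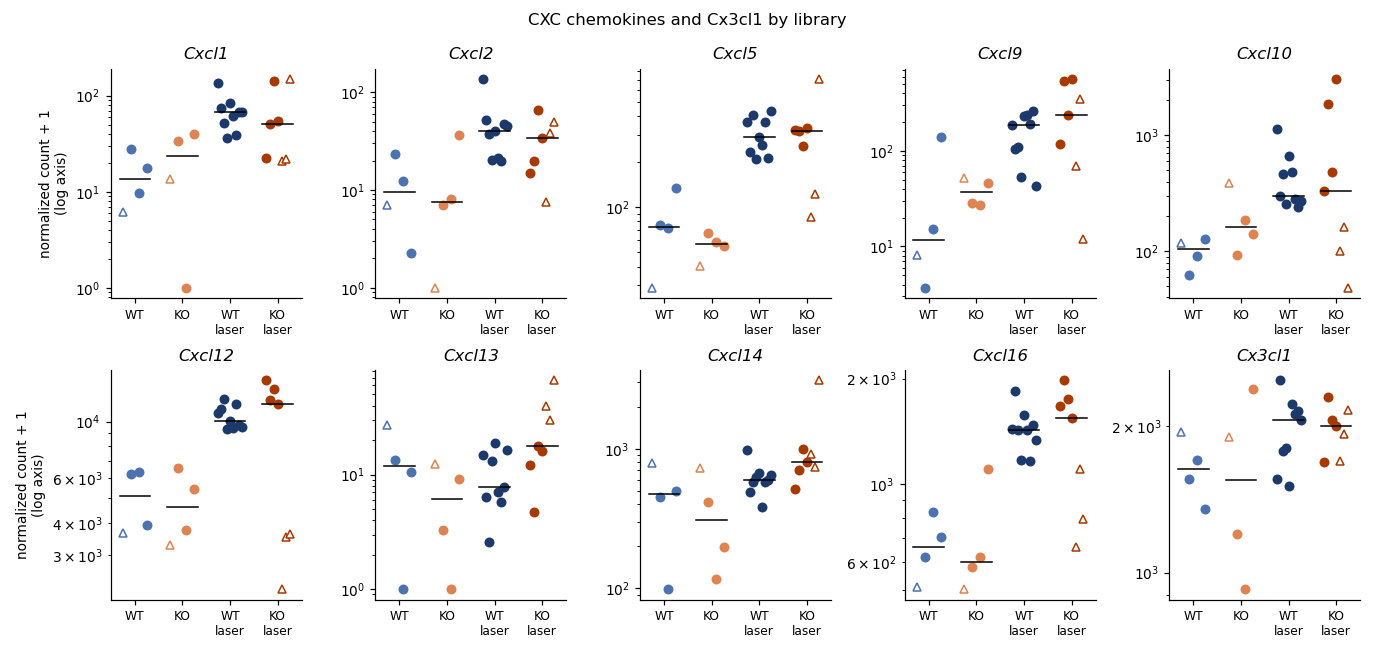
Normalized count plus 1 of each chemokine in each of the 24 libraries, on log axes with a range of their own; bars are group medians, KO stands for Ceacam1-/- and open triangles mark the 5 libraries with photoreceptor sums above 500000. In wild type, the laser libraries of Cxcl1, Cxcl5, Cxcl10, Cxcl12 and Cxcl16 all lie above those without laser, and for Cxcl12 the 3 triangles of the Ceacam1-/- laser group lie at 2202 to 3629, far below its other 4 libraries.

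Of the neutrophil-attracting members, Cxcl5 rose in both genotypes. In wild type it stood at 27.9, 74.6, 71 and 132 normalized counts in libraries 21, 22, 26 and 27 without laser, and from 207 over a median of 293 to 432 in the 9 laser libraries. Ceacam1-/- libraries 23, 24, 25 and 28 held 39.4, 66, 57.2 and 54.1, and the 7 laser libraries ranged from 85.1 over 321 to 709. The groups did not overlap in either genotype, and the lowest Ceacam1-/- laser values, 85.1 and 121, were those of libraries 14 and 15. The log2 fold change of Cxcl5 was 2.14 ± 0.42 (SE; limma adjusted p = 0.00289) in wild type and 2.22 ± 0.44 (limma adjusted p = 0.00661) in Ceacam1-/- mice. Leaving out any 1 library ended neither call, the model of only the 2 groups ended that in Ceacam1-/- mice (limma adjusted p = 0.134), and without the 5 libraries of high photoreceptor content the values were 1.73 and 2.35.

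Cxcl1 and Cxcl2 were scarcer than Cxcl5, with mean levels per kilobase of 70.4 ± 30.8 and 40.9 ± 32.1 against 196 ± 55.2 (SD, n = 9) in wild type with laser. Cxcl1 stood at 5.14, 26.7, 8.74 and 16.5 normalized counts in the 4 wild type libraries without laser and at 35.3 to 134 with laser, with a median of 66.4. In Ceacam1-/- mice it stood at 12.6, 32.7, 0 and 38.5 without laser, and from 19.8 over 49.5 to 148 with laser. Wild type groups did not overlap, whereas 4 of 7 Ceacam1-/- laser libraries lay above all 4 without laser. Its log2 fold change was 2.29 ± 0.74 (limma adjusted p = 0.0722) in wild type and 2.05 ± 0.77 (limma adjusted p = 0.132) in Ceacam1-/- mice. It did not pass the threshold in either. Without libraries 14, 15 and 18 it passed in wild type, at 2.29 ± 0.72 (limma adjusted p = 0.0442), and without all 5 libraries of high photoreceptor content it did not, at 1.92 ± 0.80 (limma adjusted p = 0.156). Without Ceacam1-/- library 25, in which Cxcl1 was at 0, the wild type adjusted p was 0.013 and the Ceacam1-/- log2 fold change fell to 0.87, the lowest of a range up to 2.64 (without library 28) when each library was left out. In wild type Cxcl1 also passed in 4 of 11 other settings, with a pseudocount of 10, quantile scaling, array weights and only the 2 groups in the model (limma adjusted p = 0.00297 in the last).

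Cxcl2 stood at 5.99, 22.1, 11.3 and 1.29 normalized counts in wild type without laser and from 19 over 38.8 to 135 with laser. The Ceacam1-/- libraries held 0, 5.98, 7.12 and 35.4, and the laser libraries 6.49 to 64.5 around a median of 33.2. Both genotypes overlapped between laser and no laser, in wild type through library 22 alone. Log2 fold changes of 2.23 ± 0.75 (limma adjusted p = 0.0842) and 1.98 ± 0.78 (limma adjusted p = 0.153) did not pass the threshold. Cxcl2 passed in wild type without library 23 (limma adjusted p = 0.0401), with only the 2 groups in the model, with quantile scaling and with array weights (limma adjusted p = 0.000326 in the last), and in Ceacam1-/- mice without library 28 (limma adjusted p = 0.0449). Its Ceacam1-/- value ranged from 1.06 without library 23 to 2.79 without library 28 when each library was left out, and was 1.17 ± 0.80 without all 5 libraries of high photoreceptor content. Cxcl1, Cxcl2 and Cxcl3 are related in sequence, and how salmon divided shared reads between them was not tested.

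The interferon-inducible members differed widely between libraries of a group. Cxcl9 stood at 7.11, 2.69, 14.4 and 138 normalized counts in wild type without laser, and from 42.2 over 186 to 259 with laser. The libraries of Ceacam1-/- mice held 50.7, 27.3, 26.1 and 45 without laser, and 11.1 to 564 around a median of 237 with laser. In wild type the groups overlapped through library 27 alone. Its log2 fold change was 3.07 ± 0.86 (limma adjusted p = 0.0388) in wild type, the largest among the 10 genes in the analysis reported, and 2.11 ± 0.90 (limma adjusted p = 0.189) in Ceacam1-/- mice. The wild type call was lost on leaving out any of 10 single libraries (1, 2, 3, 12, 13, 16, 17, 21, 22 or 26), with log2 fold changes of 2.36 to 4.11 over all 24 such fits. It was also lost in 4 of 11 other settings, with a pseudocount of 10, without a minimum, with the Y-linked covariate and with array weights, where the value was 1.23 ± 0.72 (limma adjusted p = 0.189). That value was not the largest of the members, since Cxcl1 was at 1.68 or above in all 11 other settings. Without laser libraries 14, 15 and 18, Cxcl9 also passed in Ceacam1-/- mice, at 3.05 ± 0.82 (limma adjusted p = 0.0217), and without library 18 alone its adjusted p was 0.0498. With array weights it passed there too (limma adjusted p = 0.0164).

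Cxcl10 stood at 116, 62, 90.3 and 126 normalized counts in wild type without laser, and from 241 over 301 to 1141 with laser. Every wild type laser library lay above every library without laser, with library 1 the highest. Values in Ceacam1-/- mice were 386, 91.2, 186 and 139 without laser and 333, 1852, 479 and 3062 in laser libraries 4, 5, 6 and 7. Laser libraries 14, 15 and 18 held 100, 162 and 47.4, within or below the range without laser. The log2 fold change was 2.04 ± 0.75 (limma adjusted p = 0.12) in wild type and 1.03 ± 0.79 (limma adjusted p = 0.488) in Ceacam1-/- mice. Without libraries 14, 15 and 18 it was 2.04 ± 0.52 (limma adjusted p = 0.0131) and 2.48 ± 0.61 (limma adjusted p = 0.0113), past the threshold in both genotypes. It passed in both with array weights too, and in wild type with only the 2 groups in the model. Leaving out each library moved the Ceacam1-/- value between 0.51 (without library 7) and 1.51 (without library 18). Within the groups, Cxcl9 and Cxcl10 had a Pearson correlation of 0.67 over the 24 libraries, given as a description. The T and NK cell markers, on cells that bear the receptor of both, had 0 of 6 tested members called in either genotype with all 24 libraries in the model. The 8 listed markers summed to 91.4 to 162 normalized counts in libraries 14, 15 and 18 and to 262 to 384 in laser libraries 4, 5, 6 and 7. Ceacam1-/- libraries without laser held 78 to 270, and wild type libraries 70 to 285 without laser and 123 to 300 with laser.

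Cxcl12 separated by laser in wild type and split the Ceacam1-/- laser group. It stood at 3663, 6232, 6350 and 3950 normalized counts in wild type without laser and at 9349 to 12219 in the 9 laser libraries, with a median of 10083. In Ceacam1-/- mice it stood at 3274, 6585, 3763 and 5453 without laser. Laser libraries 4, 5, 6 and 7 held 14502, 12148, 13461 and 11702, above every library without laser, while libraries 14, 15 and 18 held 2202, 3515 and 3629. Among the libraries without laser, the 2 with photoreceptor sums above 500000, 21 and 23, had the lowest Cxcl12 of their groups. The log2 fold change was 1.09 ± 0.39 (limma adjusted p = 0.105) in wild type and 0.60 ± 0.40 (limma adjusted p = 0.421) in Ceacam1-/- mice, neither past the threshold. With libraries 14, 15 and 18 left out of the model, the same wild type value of 1.09 had an SE of 0.18 (limma adjusted p = 0.000311), and the Ceacam1-/- value was 1.49 ± 0.21 (limma adjusted p = 6.33e-05). With all 5 libraries left out the values were 0.95 ± 0.17 (limma adjusted p = 0.00127) and 1.33 ± 0.19 (limma adjusted p = 0.00016). With the photoreceptor sum as a covariate over all 24 libraries, Cxcl12 was not called in either genotype, whereas with array weights it was called in both, and with only the 2 groups in the model in wild type. In wild type, leaving out library 14 alone brought the adjusted p to 0.0445.

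**Figure D3:**
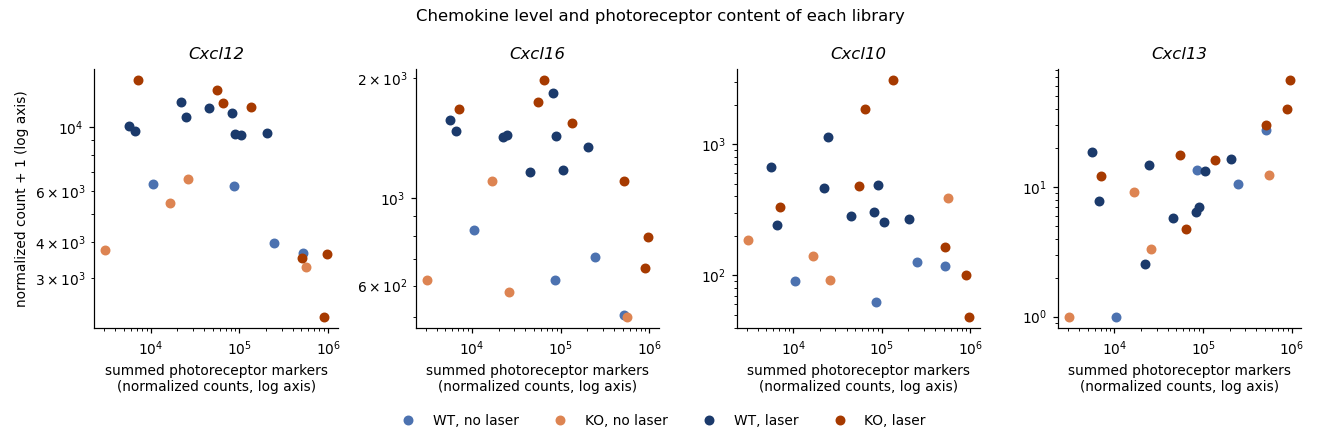
Normalized count plus 1 of Cxcl12, Cxcl16, Cxcl10 and Cxcl13 in each library against the summed normalized counts of 7 photoreceptor markers, both on log axes; points are libraries coloured by group, KO stands for Ceacam1-/-. The 3 Ceacam1-/- laser libraries on the right hold 2202 to 3629 of Cxcl12 against 11702 to 14502 in the other 4, and 28.9 to 65.3 of Cxcl13 against 3.76 to 16.7.

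Cxcl13 had the opposite distribution. It stood at 26.3, 12.4, 0 and 9.46 normalized counts in wild type without laser and at 1.56 to 17.7 with laser, with a median of 6.82. Among Ceacam1-/- libraries it stood at 11.4, 2.3, 0 and 8.07 without laser, and 11.1, 3.76, 16.7 and 15.1 in laser libraries 4, 5, 6 and 7. Libraries 14, 15 and 18 held 38.8, 28.9 and 65.3, the highest values of the series. In wild type, too, the highest value was that of library 21, which had the highest photoreceptor sum of its genotype. As a description, with no test, the log2 fold change was 0.16 in wild type and 2.19 in Ceacam1-/- mice. Without the 3 libraries the mean of Cxcl13 was under the minimum of 10, and no value was estimated. The B cell markers, on cells that bear its receptor, had 0 of 4 members called in either genotype. These markers summed to 32.4 to 67.7 normalized counts in libraries 14, 15 and 18 and to 95.6 to 268 in laser libraries 4, 5, 6 and 7. Ceacam1-/- libraries without laser held 59 to 67, and wild type libraries 27 to 138 without laser and 79 to 124 with laser.

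Cxcl14 stood at 788, 449, 97.3 and 494 normalized counts in wild type without laser and from 384 over 596 to 985 with laser. In Ceacam1-/- mice the values were 728, 413, 115 and 197 without laser and 511 to 3088 with laser, around a median of 802. The highest value, 3088, was that of library 18, and both genotypes overlapped. Log2 fold changes of 0.73 ± 0.48 (limma adjusted p = 0.406) and 1.69 ± 0.50 (limma adjusted p = 0.059) did not pass the threshold. The wild type value was lowest, at 0.10, without library 26 and highest without library 21 when each library was left out. Without all 5 libraries of high photoreceptor content Cxcl14 passed in Ceacam1-/- mice, at 1.79 ± 0.47 (limma adjusted p = 0.0136), but not without libraries 14, 15 and 18, at 1.35 ± 0.52 (limma adjusted p = 0.109). It also passed there with array weights (limma adjusted p = 0.0243) and on leaving out library 4, 23 or 26, over a range of adjusted p from 0.00933 to 0.334 when each of the 24 libraries was left out. Within the groups, Cxcl13 and Cxcl14 had a correlation of 0.77.

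Of the transmembrane members, Cxcl16 rose in both genotypes. It stood at 506, 618, 830 and 706 normalized counts in wild type without laser and at 1163 to 1841 with laser, around a median of 1430. The libraries of Ceacam1-/- mice held 500, 578, 620 and 1103 without laser and 1672, 1976, 1747 and 1546 in laser libraries 4, 5, 6 and 7. Libraries 14, 15 and 18 held 662, 1103 and 793, which overlap with the libraries without laser, while the wild type groups did not overlap. The log2 fold change was 1.11 ± 0.25 (limma adjusted p = 0.00838) in wild type and 0.92 ± 0.26 (limma adjusted p = 0.0472) in Ceacam1-/- mice. The wild type call was lost without library 21 (limma adjusted p = 0.0586). The Ceacam1-/- call was lost on leaving out any of 19 of the 24 libraries, with adjusted p up to 0.191, and held without libraries 14, 15 and 18 at 1.37 ± 0.21 (limma adjusted p = 0.000143). It was kept on leaving out library 14, 18, 21, 26 or 28, and in 5 of 11 other settings.

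Cx3cl1 was not called in either genotype. It stood at 1941, 1558, 1701 and 1349 normalized counts in wild type without laser and from 1504 over 2062 to 2483 with laser. Values in Ceacam1-/- mice were 1902, 1197, 923 and 2386, and the laser libraries ranged from 1687 over 1999 to 2292. The ranges overlapped in both genotypes. Its log2 fold change was 0.26 ± 0.19 (limma adjusted p = 0.455) in wild type and 0.39 ± 0.20 (limma adjusted p = 0.27) in Ceacam1-/- mice. With array weights it passed in both genotypes (limma adjusted p = 0.0322 and 0.0181), and the Ceacam1-/- value ranged from 0.16 without library 25 to 0.62 without library 28. Unlike those of Cxcl10, Cxcl12 and Cxcl16, its values in libraries 14, 15 and 18, at 1698, 1928 and 2160, lay within the range of the other 4 Ceacam1-/- laser libraries.

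**Figure D4:**
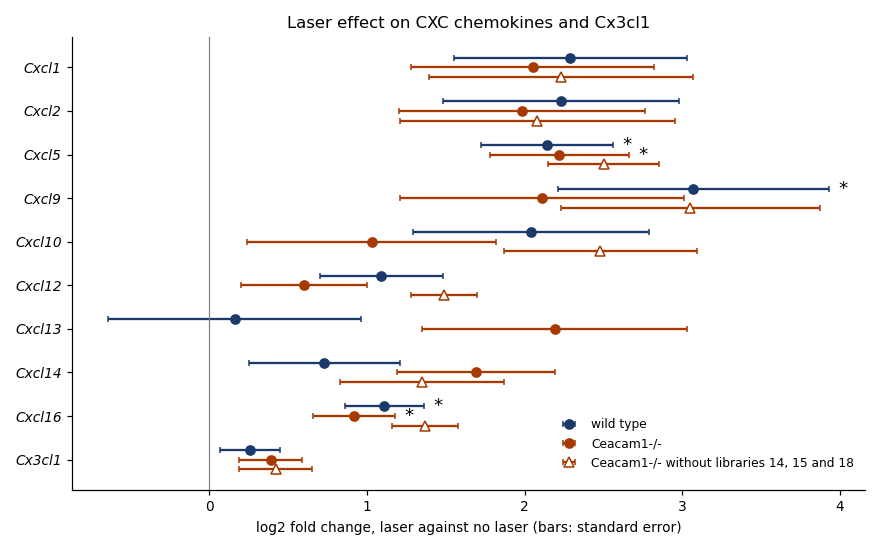
Log2 fold change of laser against no laser for each chemokine, with its standard error, in wild type (blue circles), in Ceacam1-/- mice (brown circles) and in Ceacam1-/- mice without laser libraries 14, 15 and 18 (open triangles, none for Cxcl13, whose circles are a description only); asterisks mark circles past the threshold of adjusted p under 0.05, and triangles carry no such mark. Without the 3 libraries the Ceacam1-/- values of Cxcl10 and Cxcl12 move from 1.03 and 0.60 to 2.48 and 1.49.

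Myeloid markers moved with laser beside the chemokines, and neutrophil markers did so in part. Of 10 myeloid markers, 9 were called higher in wild type mice, and 8 were in Ceacam1-/- mice. Their summed level went from a median of 12882 normalized counts to 72991 in wild type and from 11626 to 59521 in Ceacam1-/- mice, with Lyz2 the most abundant. Of 8 neutrophil markers, 5 could be tested, of which 2 were called higher in wild type and 1 in Ceacam1-/- mice, not counting Mmp8, whose mean without laser was under 10 in both genotypes (8.44 and 5.06 normalized counts) and which reached the minimum through the laser libraries. Their summed level had medians of 193 and 585 in wild type and of 281 and 747 in Ceacam1-/- mice, where laser libraries 14 and 15 held 268 and 325, beside 229 to 291 without laser. Ly6g, a defining marker, was at 0 in all 8 libraries without laser. Among 5 fibroblast markers, 1 was called higher in each genotype. The part of these cells in the chemokine changes was not tested.

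Receptors of these chemokines were read from the same libraries. Of 9 listed receptors, Cxcr1 and Cxcr5 had means under 10 normalized counts, and of the 7 tested, 2 rose in wild type and 0 in Ceacam1-/- mice. Cx3cr1, the receptor of Cx3cl1, stood at 85.2, 167, 272 and 117 normalized counts in wild type without laser and at 471 to 670 with laser, around a median of 579. The wild type groups did not overlap, and the log2 fold change was 1.96 ± 0.38 (limma adjusted p = 0.00262). Among Ceacam1-/- libraries it stood at 377, 131, 132 and 263 without laser and at 170 to 788 with laser, around a median of 592, with a log2 fold change of 1.08 ± 0.39 (limma adjusted p = 0.121). The lowest were libraries 15 and 18, and without libraries 14, 15 and 18 the value was 1.75 ± 0.32 (limma adjusted p = 0.000946).

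Cxcr4, the receptor of Cxcl12, stood at 125, 177, 191 and 123 normalized counts in wild type without laser and at 225 to 596 with laser, around a median of 354. Its wild type groups did not overlap either, and it rose by a log2 fold change of 1.24 ± 0.34 (limma adjusted p = 0.0357), a call lost on leaving out any of 8 libraries (1, 2, 3, 12, 17, 21, 22 or 27). The call was kept in 8 of 11 other settings (limma adjusted p up to 0.0786) and in 3 of 4 fits added after the data were seen (up to 0.0524). Ceacam1-/- mice had 94.1, 191, 257 and 210 without laser and 134 to 459 with laser, with a log2 fold change of 0.32 ± 0.36 (limma adjusted p = 0.649). Cxcr2, the receptor of the neutrophil-attracting members, overlapped, at 29.6 to 54.2 without laser and 15.6 to 94.8 with laser in wild type. Cxcr3 ranged from 0.84 to 32.7 without laser and from 10 to 43.2 with laser in wild type. Cxcr6, the receptor of Cxcl16, ranged from 8.1 to 45.7 without laser and from 12 to 80.3 with laser in wild type. Its Ceacam1-/- libraries ranged from 10.4 to 50 and from 5.29 to 110. The atypical receptors bind chemokines without G protein signalling, and Ackr3 takes up Cxcl12. In wild type Ackr3 stood at 1164 to 1600 without laser and at 1056 to 1548 with laser. In Ceacam1-/- mice it stood at 865 to 2261 and 323 to 1459, with a log2 fold change of -0.68 ± 0.31 (limma adjusted p = 0.224). Ackr1, a chemokine binder of venular endothelium, stood at 1306, 435 and 910 in laser libraries 14, 15 and 18, against at most 345 in every other library.

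**Figure D5:**
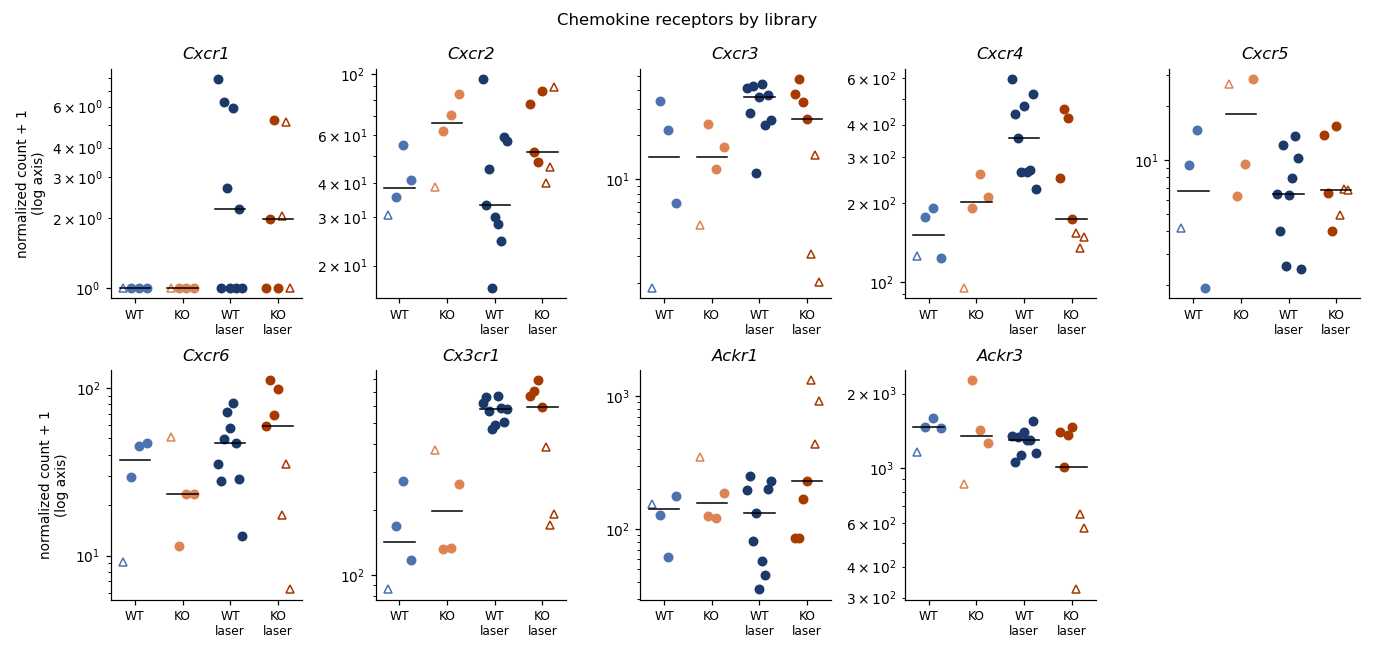
Normalized count plus 1 of the 9 receptors in each of the 24 libraries, on log axes with a range of their own; bars are group medians, KO stands for Ceacam1-/- and open triangles mark the 5 libraries with photoreceptor sums above 500000. In wild type the laser libraries of Cxcr4 (225 to 596) and Cx3cr1 (471 to 670) all lie above those without laser.

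Among 6 further CXC ligands, 5 reached the minimum mean, and 1, Pf4, rose in each genotype. Cxcl3, a further ligand of Cxcr2, was listed at 0 in all 8 libraries without laser and at 3.78 to 37.9 normalized counts in all 9 wild type laser libraries. It reached the minimum mean through the laser libraries alone, so its values are given as a description, with no test. The Ceacam1-/- laser libraries 4, 5, 6 and 7 held 0, 0, 0 and 13.1, and libraries 14, 15 and 18 held 1.88, 7.64 and 139. Pf4, made by platelets and some macrophages, stood at 184, 373, 661 and 585 in wild type without laser and at 1056 to 4549 with laser, and at 172, 654, 328 and 607 against 821 to 1924 in Ceacam1-/- mice. The groups did not overlap in either genotype, and Pf4 rose by a log2 fold change of 2.15 ± 0.40 (limma adjusted p = 0.00192) and 1.77 ± 0.42 (limma adjusted p = 0.02). The second of these calls was lost without library 25, and it was kept in 10 of 11 other settings (limma adjusted p up to 0.122). Ppbp, a platelet ligand, stood at 3351 in wild type laser library 19 and at 24.2 to 251 in the other 8.

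Of 20 cytokines, transcription factors and regulators of the NF-kappaB pathway that act on chemokine transcription, among them its inhibitors Nfkbia and Tnfaip3, 17 reached the minimum mean, and 1, Il1b, rose in each genotype. Il1b, an inflammatory cytokine, stood at 26.1 to 45.1 normalized counts in wild type without laser and at 41.4 to 213 with laser. Its log2 fold change was 1.89 ± 0.53 (limma adjusted p = 0.039) in wild type and 2.66 ± 0.56 (limma adjusted p = 0.00983) in Ceacam1-/- mice. The first of these calls was lost on leaving out any of 9 libraries (1, 2, 3, 12, 13, 21, 22, 26 or 27). It was also lost without all 5 libraries of high photoreceptor content (limma adjusted p = 0.0844), and kept in 9 of 11 other settings (limma adjusted p up to 0.0662). The second was lost without library 24 or 25, and kept in 10 of 11 other settings (limma adjusted p up to 0.145). Il6 stood at 0 to 10.2 in wild type without laser and at 9.95 to 78.5 with laser. Its means without laser, 4.76 in wild type and 3.27 in Ceacam1-/- mice, were under 10, and those with laser were 37.9 and 30.8, so that Il6 too is described with no test. Tnf ranged from 6.89 to 55.2 without laser and from 27.8 to 57 with laser in wild type, and Il17a was listed at 0 in all 24 libraries.

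Proteins that process chemokines or degrade their transcripts made up a further list of 8, of which 3 rose in wild type and 2 in Ceacam1-/- mice. Mmp12, a macrophage metalloproteinase that can cleave CXC chemokines, stood at 116 to 208 normalized counts in wild type without laser and at 956 to 3377 with laser. Its log2 fold change was 3.93 ± 0.43 (limma adjusted p = 3.61e-06) in wild type and 3.40 ± 0.45 (limma adjusted p = 0.000147) in Ceacam1-/- mice. Mmp9, a metalloproteinase that can trim Cxcl5, stood at 17.1 to 200 and 343 to 1227 in wild type, and rose by 3.45 ± 0.58 (limma adjusted p = 0.000671) and 3.73 ± 0.60 (limma adjusted p = 0.00115) on the log2 scale. For both, no laser library overlapped with a library without laser of its genotype. Adam10, which sheds Cxcl16 and Cx3cl1, stood at 1505 to 1967 and 1847 to 4179 in wild type, with a log2 fold change of 0.75 ± 0.22 (limma adjusted p = 0.049). That call held on leaving out only 6 of the 24 libraries in turn (2, 14, 17, 18, 23 or 25). It also held in 8 of 11 other settings (limma adjusted p up to 0.0886) and in 2 of 4 fits added after the data were seen (up to 0.0521). In Ceacam1-/- mice Adam10 was at 0.53 ± 0.23 (limma adjusted p = 0.197), and it passed without libraries 14, 15 and 18, at 0.83 ± 0.22 (limma adjusted p = 0.0173), and without all 5, at 0.98 ± 0.22 (limma adjusted p = 0.00497).

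Whether laser acted differently in the genotypes was tested as an interaction over 19950 genes. None of the 9 members other than Cxcl13 passed, and 0% of all genes did, with 1241 genes (6.22%) at an unadjusted p under 0.05 in limma's test and 0 of the 9 members among them. The log2 difference between the laser effects, Ceacam1-/- minus wild type, was 0.96 ± 0.69 for Cxcl14, -1.02 ± 1.09 for Cxcl10 and -0.49 ± 0.56 for Cxcl12. Without libraries 14, 15 and 18 the values of Cxcl10 and Cxcl12 turned to 0.44 ± 0.80 and 0.40 ± 0.27, and that of Cxcl14 was 0.62 ± 0.68. With the photoreceptor sum as a covariate, Cxcl14 was at 0.09 ± 0.58.

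The comparison of genotypes without laser asked whether the loss of Ceacam1 alone went with a difference in these chemokines. It called none of the 9 members tested, nor any of 20057 genes, 0% of which passed limma's test, with 307 (1.53%) at an unadjusted p under 0.05. No member of the 9 was among the latter. Ceacam1, the targeted gene, was not called either, with a log2 fold change of -1.95 ± 0.60 (limma adjusted p = 0.999). The absence of calls in this fit therefore does not show that the chemokines were alike between genotypes. Cxcl10, at 116, 62, 90.3 and 126 normalized counts in wild type and 386, 91.2, 186 and 139 in Ceacam1-/- libraries, had a log2 fold change of 0.86 ± 0.47 (limma adjusted p = 0.999), with 3 of 4 Ceacam1-/- libraries above all wild type libraries. For Cxcl9 it was 1.21 ± 1.02 (limma adjusted p = 0.999), and the groups overlapped through wild type library 27. On leaving out single libraries the values ranged from 0.48 to 1.17 for Cxcl10 and from 0.50 to 2.25 for Cxcl9. In other settings they lay between 0.14 and 0.90 for Cxcl10 and between -0.69 and 1.42 for Cxcl9. Cxcl13 had a mean of 8.75 over these 8 libraries and was compared by a two-sided exact permutation test, with p = 0.543 over 70 splits, the smallest possible being 0.0286.

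With laser, genotype was compared in 16 libraries, and again none of the 9 members other than Cxcl13 passed, beside 0.0202% of 19757 genes (4 genes). At an unadjusted p under 0.05, 1 of them was found, beside 22.7% of all genes. This was Cxcl14, with a log2 fold change of 0.63 ± 0.29 (limma adjusted p = 0.205), and without libraries 14, 15 and 18 its value was 0.29 ± 0.21. Cxcl12 went from -0.58 ± 0.35 to 0.31 ± 0.11 and Cxcl10 from -0.15 ± 0.70 to 1.30 ± 0.54 without them, neither past the threshold. In the 16 libraries Ceacam1 was again not called, at -2.17 ± 0.52 (limma adjusted p = 0.104), so that this fit too can miss a difference.

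The genes whose pattern was most like each member were found by the correlation of log2 values within groups over the 24 libraries, given as a description. Libraries differ in tissue makeup, which all genes of a library share, and r without subtraction of the group means stands in brackets. Cxcl12 had the highest likeness, at 0.97 [0.87] with Gypc, 0.97 [0.96] with Hic1 and 0.97 [0.69] with D630003M21Rik. Cxcl16 followed, at 0.95 [0.88] with Tmem176a, 0.94 [0.86] with Tmem176b and 0.92 [0.90] with Arpc1b. For Cxcl14 it was 0.86 [0.80] with Zfp120, 0.83 [0.83] with Zfand4 and 0.81 [0.89] with Gem. For Cxcl10 it was 0.86 [0.79] with Acod1, 0.81 [0.82] with Ifi206 and 0.81 [0.78] with Ms4a6c. For Cxcl13 it was 0.84 [0.74] with Ret, 0.83 [0.79] with Gm14296 and 0.82 [0.83] with Zfp54. For Cxcl9 it was 0.83 [0.83] with Mx1, 0.80 [0.87] with Slfn1 and 0.79 [0.84] with Acod1. For Cx3cl1 it was 0.82 [0.49] with Zfp395, 0.74 [0.60] with Efna3 and 0.71 [0.79] with Fgd1. For Cxcl2 it was 0.82 [0.35] with Tubb4b, 0.79 [0.85] with Haus4 and 0.79 [0.84] with Saa3. For Cxcl5 it was 0.80 [0.94] with Prg4, 0.76 [0.80] with Il1rl1 and 0.74 [0.67] with Pi15. For Cxcl1 it was 0.79 [0.88] with Cenpm, 0.77 [0.87] with Vrk1 and 0.77 [0.86] with Fkbp1b. Among the 45 pairs of members, Cxcl12 and Cxcl16 were the most alike at 0.79 within groups, and Cxcl14 and Cxcl16 the least at -0.52.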

How the data were processed

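Choroidal RNA was made into SMART-Seq libraries and sequenced by the authors, who pseudo-aligned reads to GRCm39 with Salmon 1.10.3 and scaled them in DESeq2 1.44.0. The deposited signal values are normalized counts, which the authors made from the estimated reads (by default, division by factors for library size and transcript length). Of the values under 30 times a library's commonest value, 7.72% to 29.7% were whole multiples of it (within 0.02), so whole reads were not recovered and no count test was run. The libraries over which the factors were computed are not given in the sources used here. Reads shared between related genes were divided by Salmon.

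Values were tested with limma 3.58.1 (R 4.3.3; trend option) after adding 1 and taking log2. A gene entered a fit where its mean there was at least 10, p-values were adjusted over all of them by the Benjamini-Hochberg method, and the threshold was 0.05. Fold changes on this scale understate those of low genes. Genes that reached this minimum through the laser libraries alone were described with no test and not counted as called. Laser effects and their interaction with genotype came from all 24 libraries, and genotype effects from the 8 libraries without and the 16 with laser. The test was also run on simulated data, the outcome of which is not given here. Sex, which the labels do not give, was no covariate, but the summed Y-linked genes were in 1 alternative. Other alternatives were pseudocounts of 0.5 and 10, no minimum and a minimum of 50, quantile and upper-quartile scaling, no trend, robust variances, array weights, other libraries in the fit, and each library left out in turn. Added after the data were seen were photoreceptor and surface epithelium sums as covariates, and the omission of libraries with photoreceptor sums above 500000.

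The members, the lists of receptors, further ligands, regulators and processing genes, and the cell type markers were chosen with earlier results of these data known. Named are the members, their receptors, genes of the lists of ligands, regulators and processing genes past the threshold in a laser comparison, and the 3 genes most alike to each member. Cell type markers are given as counts and sums. Tnf, Il17a, Ppbp and the markers named (among them Ly6g, Mmp8 and the most abundant of a list) fall outside this rule and were chosen after their values were seen. Positions came from the GRCm39 annotation and promoters from RefSeq (GRCm38.p6). The authors' comparison of genotypes was not used.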

Additional observations from a re-analysis of the deposited data

Results flagged for a closer look

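In each group of 4 to 9 libraries, the highest and lowest normalized count of each chemokine, not on the log2 scale, was set against Dixon's 95% limit. Chance passes this limit in about 1 of 20 groups where values are normally spread, which was not tested for these counts. Of 40 groups, 7 held such a value, all of them the highest of their group. Counts with a long upper tail pass more often, so that this number cannot be read against the rate of 1 in 20. Wild type laser library 1 stood apart in 4 genes, with 134 normalized counts of Cxcl1 (next highest 83.6), 135 of Cxcl2 (next 50.4), 1141 of Cxcl10 (next 666) and 985 of Cxcl14 (next 672). This library also held the highest summed myeloid and neutrophil markers of the series, 125168 and 1469. Ceacam1-/- laser library 18 stood apart in Cxcl5, at 709 (next 334), and in Cxcl14, at 3088 (next 993), and it held the highest photoreceptor sum, 965745. Wild type library 27, without laser, held 138 of Cxcl9 (next 14.4). The part of the cell markers in these values was not tested.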

How the results depend on the processing

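The count of members called after laser in wild type, 3 in the analysis reported, was 2 without a minimum and with the Y-linked covariate, 5 with quantile scaling, 7 with array weights, 7 with only the 2 groups in the fit, 6 without libraries 14, 15 and 18, and 5 without all 5 libraries of high photoreceptor content. The share of all genes called higher, 4.23% as reported, was 1.59%, 3.35%, 4.33%, 16.2%, 8.13%, 7.82% and 5.76% in these fits. Leaving out each library in turn gave 1 to 4 (2.06% to 4.91% of all genes). In Ceacam1-/- mice the count, 2 as reported, was 1 without a minimum, 1 with quantile scaling, 1 with upper-quartile scaling, 1 without the trend, 1 with the Y-linked covariate and 1 with the surface epithelium covariate, 7 with array weights, 0 with only the 2 groups in the fit, 5 without libraries 14, 15 and 18 and 6 without all 5. In the same order, 0.656%, 1.74%, 1.99%, 1.89%, 1.84%, 2.21%, 9.50%, 0.177%, 7.60% and 8.66% of all genes were called higher, against 2.07% as reported. Leaving out each library gave 1 to 3 (0.667% to 5.71%). No member was called in the genotype comparisons or the interaction under any alternative run. Over all genes, array weights raised the calls from 1053 to 6505 in wild type, from 742 to 3551 in Ceacam1-/- mice and from 4 to 297 between genotypes with laser. Leaving out single libraries gave 479 (library 21) to 1257 in wild type and 148 (library 25) to 2488 (library 23) in Ceacam1-/- mice. No setting moved the median of all genes by more than 0.1 on the log2 scale. The causes were not tested.

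Some values that were not called changed sign. The log2 laser effect of Cxcl13 in wild type, a description with no test at 0.16, was -0.10 with a pseudocount of 10, -0.32 with array weights and -0.84 to 0.76 on leaving out single libraries. The interaction of Cxcl10, -1.02, was 1.23 with array weights, 0.44 without libraries 14, 15 and 18 and 0.72 without all 5, and that of Cxcl12, -0.49, was 0.19 with the photoreceptor covariate, 0.40 and 0.38. Between genotypes with laser, Cxcl10, -0.15, was 1.39 with array weights, 0.50 with the photoreceptor covariate, 1.30 without libraries 14, 15 and 18 and -0.67 to 0.33 on leaving out single libraries. Cxcl12, -0.58, was 0.08 with array weights and 0.31 without libraries 14, 15 and 18. Between genotypes without laser, Cxcl9, 1.21, was -0.69 with array weights. Values near 0 for Cxcl1, Cxcl2 and Cxcl13 rest on few reads, whose number is unknown, which limits their precision. No paired analysis was possible because the groups share no replicate numbers.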

Other observations

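Further cell type markers were read in the laser comparisons, and their medians are given for wild type first. Retinal pigment epithelium, whose markers were led by Rgr and Ttr, had 0 of 6 markers called, with median log2 fold changes of -0.07 (wild type) and -1.61 (Ceacam1-/-). Endothelial markers, led by Plvap, had 0 of 8 called, with medians of 0.43 and -0.09. The photoreceptor markers had 0 of 7 called, with medians of -1.52 and 2.34, and melanocyte markers 0 of 6, with medians of 0.54 and -0.46. Muscle markers had 0 of 5 called, with medians of -0.84 and -2.06, mural markers 0 of 5, with 0.46 and -0.56, and Mueller glia markers 0 of 4, with -0.23 and -0.34. Lens markers had 0 of 6 called, with 1.60 and 1.39, surface epithelium markers 0 of 6, with -0.91 and -2.54, and erythroid markers 0 of 3, with 1.09 and 0.72.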
